A study of Mus musculus with 12 samples.

Results

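The Wnt-dependent pericentral genes are hepatocyte genes around the central vein of the liver lobule whose transcription relies on Wnt and β-catenin. A set of 10 was listed by name: Glul, Axin2, Lgr5, Rnf43, Znrf3, Tbx3, Rhbg, Slc1a2, Lect1 and Sp5. The rule takes the genes by name and uses no measured value, but the list was chosen with earlier results of these data known. Of these, 9 were found by Ensembl identifier among the 16346 genes of the table, with Lect1 under its present symbol Cnmd, and all 9 passed the filter on low values. Rhbg, which encodes an ammonium transporter, was not analysed here.

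Liver RNA was sequenced from 12 mice of the C57BL6J strain at 12 weeks of age, with 2 mice in each of 6 groups. All mice carried floxed Med13 alleles, Med13fl/fl mice without Cre were the controls, and the MED13-LKO mice carried Alb-Cre, whose albumin promoter restricts recombination largely to hepatocytes. In each genotype a group was fasted overnight for 16 h, and the other two groups were refed for 4 h with normal chow and with drinking water that held 30% sucrose or 30% fructose. No group carried Cre without floxed alleles, so the effects of Cre and of the deletion cannot be told apart, and per the study's methods the refed mice were killed at a later hour of the day than the fasted mice. MED13 joins the kinase module to the Mediator complex, a bridge between transcription factors and the polymerase, and the design compares genotypes in each dietary state and the responses to feeding between genotypes.

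The targeted gene did not check the labels. Med13 had 578 to 796 normalized counts in the 6 control libraries and 646 to 1055 in the 6 labelled MED13-LKO, where it was thus no lower (log2 difference 0.22, SE 0.11, adjusted p = 0.201). The table gives 1 value per gene, so a deleted exon cannot be read from it, and the genotype is used here as labelled. At the protein level the paper reports, from Western blots of liver nuclei, that MED13 and MED12 were almost absent in MED13-LKO mice. Whether those were the sequenced mice is not stated. A normalized count is an estimated read count divided by a factor for the library, as the authors deposited it. The sums of these values were 21062200 to 24152900 in control and 17309200 to 18738600 in MED13-LKO libraries, which have the authors' normalization in them. Differences between groups are given on the scale of log2(normalized count + 1), MED13-LKO minus control or refed minus fasted. They were fitted with limma over 12366 genes whose mean reached 10, and a gene is called where its Benjamini-Hochberg adjusted p over those genes was under 0.05.

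In the liver, endothelial cells of the central vein release Wnt ligands and R-spondins, which stabilise β-catenin in the hepatocytes next to them. β-catenin then acts with TCF factors on pericentral genes, among them the gene of glutamine synthetase, which captures ammonia that escaped the urea cycle upstream. LGR receptors bind R-spondin, RNF43 and ZNRF3 remove Wnt receptors from the cell surface, and AXIN2 helps to degrade β-catenin, so that several targets of the pathway also regulate it. In bulk liver RNA, fewer pericentral hepatocytes and less RNA of a gene in each of them cannot be told apart.

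The bases before the start sites of 6 of the genes were found in RefSeq sequence of build GRCm38.p6, in 7 windows of 250 bases. They are shown for Sp5, which held the most matches to letters bound by TCF factors, and for Axin2, the classical feedback target, which held none in its window. The letters searched on both strands were CTTTGAA or CTTTGAT or CTTTGTA or CTTTGTT, and capitals mark them. The Sp5 window lay at chr2:70474673-70474922 on the plus strand and the Axin2 window at chr11:108920099-108920348 on the plus strand, and neither overlapped an annotated exon.
Sp5: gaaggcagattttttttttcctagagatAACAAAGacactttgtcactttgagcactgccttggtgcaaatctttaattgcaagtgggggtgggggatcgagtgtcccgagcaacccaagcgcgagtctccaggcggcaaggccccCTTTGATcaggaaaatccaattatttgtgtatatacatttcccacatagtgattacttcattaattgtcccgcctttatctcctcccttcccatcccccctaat
Axin2: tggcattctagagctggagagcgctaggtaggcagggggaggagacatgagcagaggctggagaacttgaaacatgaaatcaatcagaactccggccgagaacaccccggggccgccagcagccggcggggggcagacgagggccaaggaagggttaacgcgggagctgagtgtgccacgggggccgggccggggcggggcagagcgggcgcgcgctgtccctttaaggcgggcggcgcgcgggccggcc
The matches in the Sp5 window began 222 and 104 bases before the start site. The first is CTTTGTT on the opposite strand, which reads AACAAAG on the strand shown. Slc1a2 held 1 match, CTTTGAT on the opposite strand and ATCAAAG on the gene's strand. It lay 207 bases before a RefSeq start site at the end of a window at chr2:102706188-102706437. The windows of Glul, Rnf43 and Cnmd held none. The Glul window and 1 of the 2 Rnf43 windows lay in annotated exons over all 250 bases, and the Slc1a2 window over 29 bases. Of all 32851 windows of this length, 14.84% held at least 1 match. A match is a run of letters and not a measured binding site.

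Glul and Slc1a2, the most abundant of the genes, were lower in the libraries labelled MED13-LKO in the average over the 3 diets. Glul encodes glutamine synthetase and lies on chromosome 1 of GRCm38 from 153899944 to 153909723. The fasted control mice had 11693 and 12397 normalized counts, those refed with sucrose 14032 and 16158, and those refed with fructose 14482 and 15465. The corresponding MED13-LKO mice had 11401 and 9555 (fasted), 10152 and 10832 (sucrose), and 9781 and 8662 (fructose). All 6 MED13-LKO values lay below the lowest control value, although in the fasted state the gap was narrow, and control values were higher in refed than in fasted mice. The log2 difference averaged over diets was -0.48 (SE 0.063, adjusted p = 0.00056, limma), or 0.719 of the control level. In its exons, 12.1% of 31-base subsequences also occur in another annotated gene, so some of its reads could have been shared with that copy.

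Slc1a2, which encodes a sodium-coupled glutamate transporter and lies on chromosome 2 from 102658659 to 102790784, showed the same order of genotypes in every diet. Fasted control mice had 4025 and 3833 normalized counts, sucrose-fed ones 3110 and 3664, and fructose-fed ones 3329 and 3874. The MED13-LKO values, diet by diet, were 2553 and 2524, 1856 and 2062, and 1940 and 1845. The genotypes did not overlap in any diet, and the 6 MED13-LKO values all lay below the 6 control values. The log2 difference averaged over diets was -0.78 (SE 0.059, adjusted p = 1.70e-05), or 0.582 of the control level, and it was called within each diet at -0.63 when fasted (adjusted p = 0.00556), -0.79 with sucrose (adjusted p = 0.00228) and -0.92 with fructose (adjusted p = 0.000786). Glul was called with sucrose at -0.52 (adjusted p = 0.0227) and with fructose at -0.70 (adjusted p = 0.0048), and its difference when fasted was -0.21 (SE 0.11, adjusted p = 0.272). The Glul call with sucrose was lost without control replicate 2 (adjusted p = 0.138), MED13-LKO replicate 1 (adjusted p = 0.162) or MED13-LKO replicate 2 (adjusted p = 0.0794), and also on rescaling to equal totals (log2 difference -0.24, adjusted p = 0.131).

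**Figure D1:**
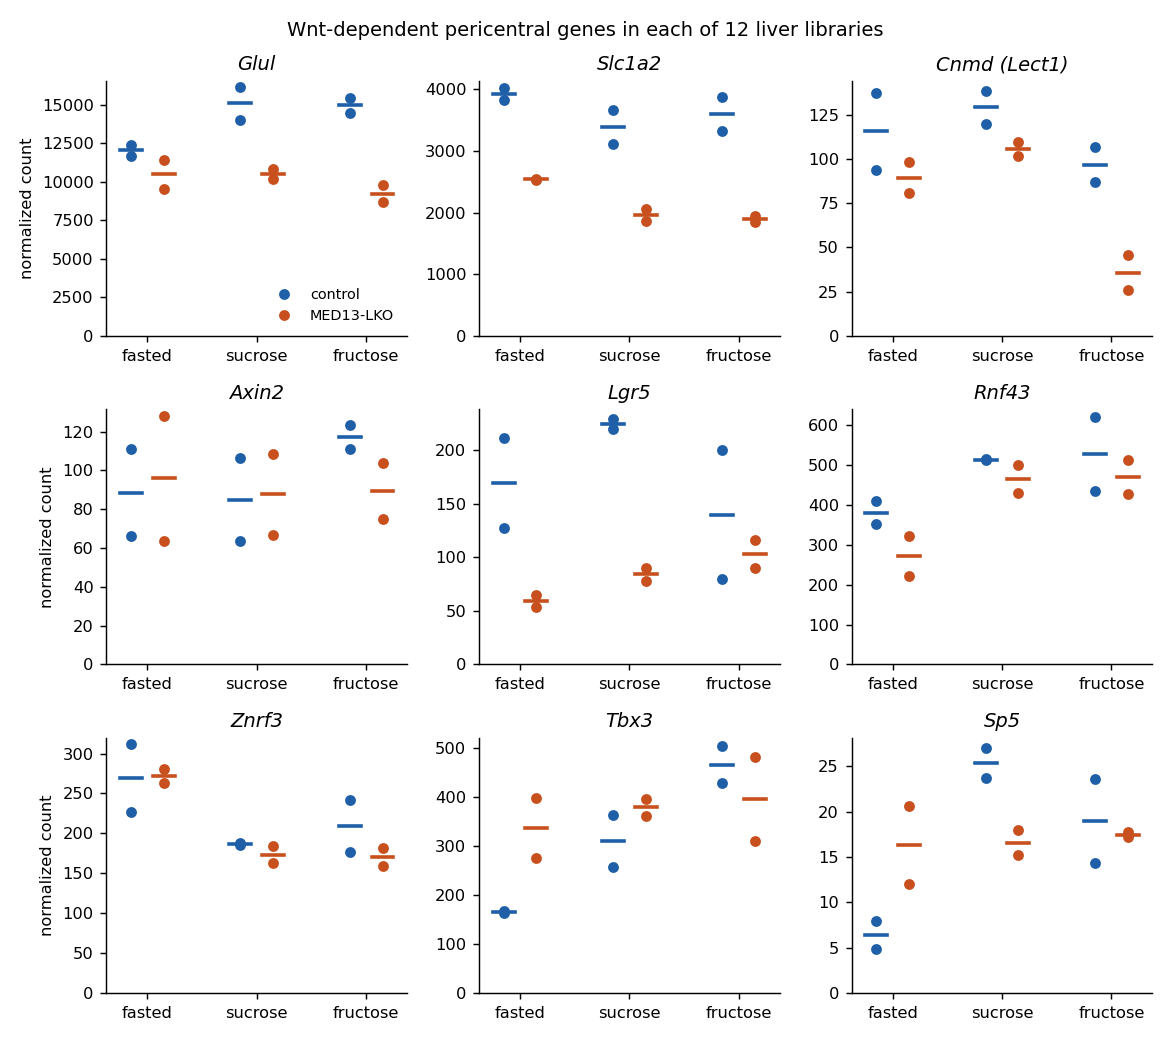
Normalized counts (vertical axes, starting at 0) of 9 Wnt-dependent pericentral genes in 12 liver libraries by diet, with a point for each mouse and a bar for the mean of 2 mice, control in blue and MED13-LKO in orange. Glul and Slc1a2 show 6 MED13-LKO points below all 6 control points, while the genotypes overlap over the 12 libraries in the other 7 genes.

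Lgr5, which encodes a receptor for R-spondins and lies on chromosome 10 from 115450311 to 115587780, was about 0.481 of the control level on average over diets. Its normalized counts were 127 and 212 in fasted, 220 and 229 in sucrose-fed and 79.3 and 200 in fructose-fed control mice. The MED13-LKO values, again by diet, were 53.9 and 64.9, 77.6 and 90.1, and 89.7 and 116. The genotypes were apart when fasted and with sucrose and overlapped with fructose, where control replicate 1 fell among the MED13-LKO values. The average log2 difference was -1.06 (SE 0.22, adjusted p = 0.00669), and within diets it was -1.45 when fasted (adjusted p = 0.0426), -1.41 with sucrose (adjusted p = 0.0589) and -0.30 with fructose (adjusted p = 0.687). Leaving out any of the 4 fasted libraries ended the fasted call: the adjusted p was 0.0637 without control replicate 1, 0.226 without control replicate 2, 0.172 without MED13-LKO replicate 1 and 0.127 without MED13-LKO replicate 2.

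Cnmd, formerly Lect1, encodes chondromodulin, a secreted protein named for its role in cartilage, and lies on chromosome 14 from 79637690 to 79662170. Fasted control mice had 93.8 and 137 normalized counts, sucrose-fed ones 120 and 138, and fructose-fed ones 107 and 86.7. MED13-LKO mice had 80.5 and 98.4, 102 and 110, and 45.6 and 26.0, so that the fructose-fed MED13-LKO mice held the lowest 2 of the 12 values. The fasted groups overlapped, and the sucrose and fructose groups did not. The average log2 difference was -0.69 (SE 0.16, adjusted p = 0.0122), and within diets it was -1.45 with fructose (adjusted p = 0.0146), -0.35 when fasted (adjusted p = 0.489) and -0.28 with sucrose (adjusted p = 0.641). The call with fructose was lost without control replicate 1 (adjusted p = 0.0725) or MED13-LKO replicate 2 (log2 difference -1.06, adjusted p = 0.0960).

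None of the 3 genes that restrain Wnt signalling, Axin2, Rnf43 and Znrf3, was called between genotypes, on average or within a diet. Axin2, on chromosome 11 from 108920349 to 108950783, had 66.3 and 111, 63.4 and 107, and 111 and 123 normalized counts in fasted, sucrose-fed and fructose-fed control mice. The MED13-LKO mice had 128 and 63.9, 66.8 and 109, and 75 and 104. Values within a group differed by up to about as much as the whole range over groups, and the average log2 difference of -0.09 (SE 0.23, 95% interval -0.61 to 0.43, adjusted p = 0.812) was not called.

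Rnf43 and Znrf3 encode the membrane ubiquitin ligases that clear Frizzled receptors, and both genes lie on chromosome 11, from 87662722 to 87735539 and from 5276324 to 5444847. For Rnf43 the control mice had 352 and 409, 515 and 512, and 434 and 619 normalized counts, and the MED13-LKO mice 221 and 322, 430 and 498, and 428 and 511. For Znrf3 the control mice had 227 and 312, 188 and 185, and 177 and 242, and the MED13-LKO mice 263 and 281, 184 and 163, and 182 and 159. Refed mice tended to lie above fasted mice for Rnf43 and below them for Znrf3 in both genotypes. The genotype difference was -0.27 for Rnf43 (SE 0.12, 95% interval -0.53 to -0.00055, adjusted p = 0.135) and -0.12 for Znrf3 (SE 0.11, 95% interval -0.36 to 0.13, adjusted p = 0.474). Rnf43 was called lower without control fructose replicate 1 (log2 difference -0.35, adjusted p = 0.0483), and it stood at -0.18 (adjusted p = 0.295) without MED13-LKO fasted replicate 1.

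The transcription factor genes Tbx3 and Sp5 were lowest in the fasted control mice. Tbx3, a T-box factor gene on chromosome 5 from 119670669 to 119684724, had 167 and 163 normalized counts in fasted, 256 and 363 in sucrose-fed and 427 and 503 in fructose-fed control mice. The MED13-LKO mice had 398 and 274, 396 and 362, and 480 and 309, and did not order by diet. When fasted, Tbx3 was higher in MED13-LKO mice by 1.0 on the log2 scale (SE 0.24, adjusted p = 0.0334), whereas the average over diets was 0.35 (SE 0.14, adjusted p = 0.101). The fasted call was lost without control replicate 1 (adjusted p = 0.124), control replicate 2 (adjusted p = 0.136) or MED13-LKO replicate 1 (log2 difference 0.73, adjusted p = 0.182).

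Sp5, a zinc finger factor gene and Wnt target on chromosome 2 from 70474923 to 70477729, had the lowest values of the set. Fasted control mice had 7.93 and 4.82 normalized counts, sucrose-fed ones 27.0 and 23.7, and fructose-fed ones 14.3 and 23.6. MED13-LKO mice had 20.7 and 12.1, 18.0 and 15.2, and 17.7 and 17.2. The fasted control mice lay below all the other 10 libraries, and the genotypes overlapped with fructose. The average log2 difference was 0.19 (SE 0.25, 95% interval -0.38 to 0.75, adjusted p = 0.634), and the fasted difference of 1.22 (SE 0.44, adjusted p = 0.114) rests on a few reads in each control mouse.

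**Figure D2:**
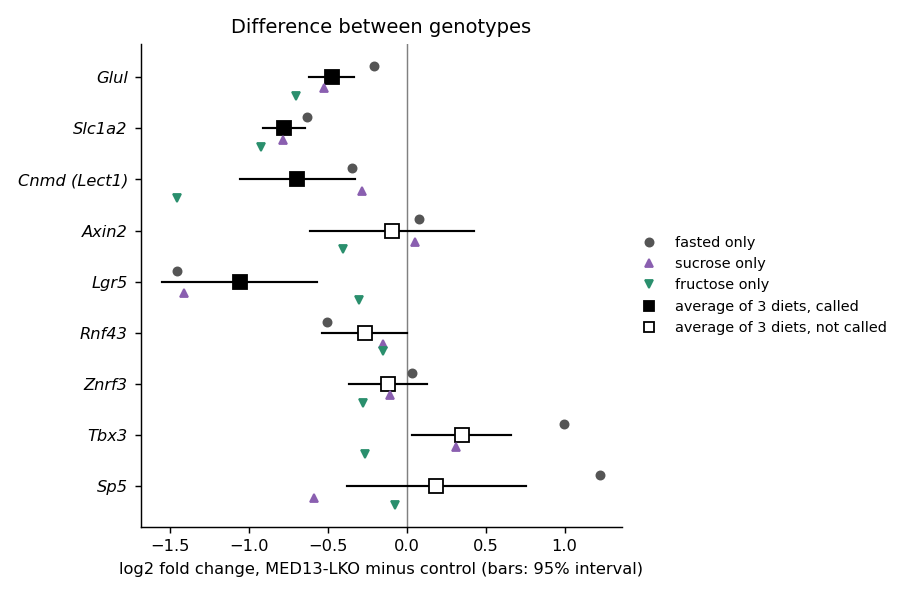
Log2 fold change between MED13-LKO and control (horizontal axis) for 9 genes, with a square and its 95% interval for the average over 3 diets, filled where the adjusted p was under 0.05, and a small symbol for each diet. The filled squares of Lgr5 (-1.06), Slc1a2 (-0.78), Cnmd (-0.69) and Glul (-0.48) lie to the left of 0, and the diets lie furthest apart for Sp5, Tbx3, Cnmd and Lgr5.

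On average over diets 4 of the 9 genes were thus called lower in the libraries labelled MED13-LKO and 0 higher, against 13.2% of all 12366 genes tested called lower and 12.1% called higher. Each of the 4 calls remained with any 1 of the 12 mice left out, with adjusted p-values of at most 0.0364. The median log2 difference of the 9 genes was -0.27, beside 0.01 over all genes. The 2 genotypes did not overlap over 6 against 6 libraries for Glul and Slc1a2, a pattern that 4.93% of all genes showed in the lower direction. Within diets the calls were 2 lower and 1 higher when fasted (4.86% and 4.12% of all genes), 2 lower with sucrose (3.33% of all genes) and 3 lower with fructose (3.95% of all genes). With 2 mice in a group the p-values rest on the spread between these mice, pooled over the 6 groups. For each gene that spread was drawn toward the spread of genes at a similar level.

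These differences depend on how the libraries are put on 1 scale. The MED13-LKO libraries had lower sums of normalized counts, and rescaling all libraries to equal totals moved the median difference of all genes from 0.01 to 0.32 and the calls over all genes from 12.1% higher and 13.2% lower to 57.5% higher and 3.28% lower. On that scale Slc1a2 at -0.46 (adjusted p = 0.000265), Lgr5 at -0.74 (adjusted p = 0.0165) and Glul at -0.16 (adjusted p = 0.0412) were still called lower, Cnmd at -0.38 was not called (adjusted p = 0.0582), and Tbx3 was called higher at 0.66 (adjusted p = 0.00297). Axin2, Rnf43 and Znrf3 turned to 0.22, 0.0485 and 0.20, and none of them was called. Relative to the median of all genes on that scale, Lgr5 lay at -1.06, Slc1a2 at -0.78, Cnmd at -0.70 and Glul at -0.48. Rescaling shifts all genes of a library nearly alike, so these values return to the first ones by arithmetic and are not a further test.

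Tbx3 and Sp5 were higher in refed than in fasted control mice, each called with 1 sugar only. Feeding and the later hour of killing cannot be told apart here. Sp5 was higher with sucrose than in the fasted state by 1.87 (SE 0.44, adjusted p = 0.0294) and Tbx3 with fructose by 1.48 (SE 0.24, adjusted p = 0.00917), each the 1 gene of 9 called in that comparison, against 4.85% and 2.79% of all genes called higher. With the other sugar the values were 1.43 for Sp5 (adjusted p = 0.0908) and 0.88 for Tbx3 (adjusted p = 0.0532). The Sp5 call was lost without either fasted control mouse (adjusted p = 0.0575 and 0.164 without replicates 1 and 2) and without either sucrose-fed mouse (adjusted p = 0.144 and 0.0927), and the Tbx3 call without fasted control replicate 2 (adjusted p = 0.0677). Glul was 0.32 higher with sucrose (SE 0.11, adjusted p = 0.102) and 0.31 higher with fructose (SE 0.11, adjusted p = 0.124) in control mice. Both sugars are compared with the same fasted mice.

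In MED13-LKO mice refeeding with fructose gave calls for Rnf43, Slc1a2 and Cnmd. With fructose Rnf43 was higher than in the fasted state by 0.81 (SE 0.21, adjusted p = 0.0475). Slc1a2 was lower at -0.42 (SE 0.10, adjusted p = 0.0388) and Cnmd at -1.34 (SE 0.28, adjusted p = 0.0245). That was 1 of 9 higher and 2 of 9 lower, against 2.94% and 3.58% of all genes. With sucrose limma called 0 of 9, against 5.71% of all genes, and Rnf43 at 0.79 came nearest (adjusted p = 0.0537). There 3 of 9 had an unadjusted p under 0.05, a looser threshold for which no share of all genes is given. The calls with fructose did not survive the loss of single mice. Each such fit left 1 mouse in a group, and fewer of all genes were called in it too. Over the 4 fits the log2 difference was 0.54 to 1.08 for Rnf43, -0.46 to -0.39 for Slc1a2 and -1.74 to -0.95 for Cnmd. Znrf3 was lower after both sugars in both genotypes, with log2 differences of -0.51 and -0.36 in control and -0.65 and -0.67 in MED13-LKO mice for sucrose and fructose, and none was called (adjusted p = 0.0641 to 0.288).

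**Figure D3:**
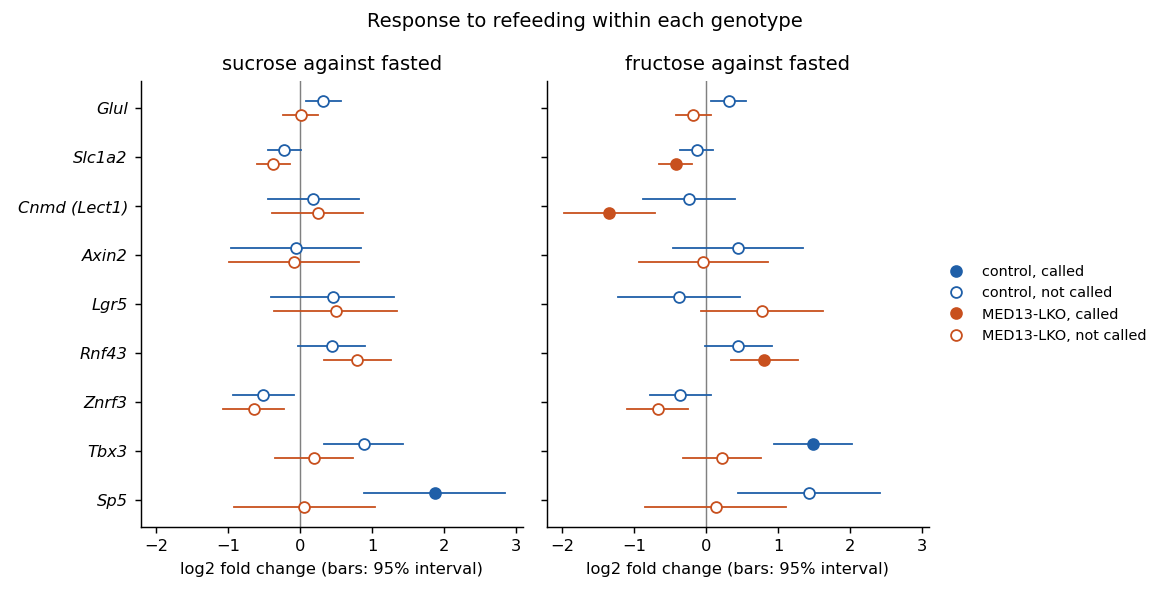
Log2 fold change of sucrose (left) and fructose (right) against the fasted state for 9 genes, with 95% intervals, control in blue and MED13-LKO in orange, filled where the adjusted p was under 0.05. Tbx3 and Sp5 lie further to the right in control than in MED13-LKO mice, and Cnmd lies far to the left with fructose in MED13-LKO mice at -1.34.

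Whether a feeding response differed between genotypes was tested as an interaction, and limma called 0 of the 9 genes for either sugar. Of all genes, 0.146% were called for sucrose and 0.0243% for fructose. An unadjusted p under 0.05 was reached by 1 of 9 for sucrose and 3 of 9 for fructose. No share of all genes is given at that looser threshold. The response of Sp5 to sucrose in MED13-LKO minus that in control mice was -1.81 (SE 0.62, 95% interval -3.20 to -0.42, adjusted p = 0.473). For fructose the differences were -1.26 for Tbx3 (SE 0.34, adjusted p = 0.329), -1.11 for Cnmd (SE 0.40, adjusted p = 0.456) and -0.50 for Glul (SE 0.15, adjusted p = 0.416). Tbx3 and Sp5 were thus called in control mice alone, but the difference of their responses between genotypes was tested and not called.

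The 2 sugars were also compared directly, where limma called 0 of the 9 genes in either genotype, against 0.0404% of all genes in each. In each genotype 1 of 9 had an unadjusted p under 0.05, a looser threshold for which no share of all genes is given. In MED13-LKO mice the largest difference was that of Cnmd, lower with fructose than with sucrose at -1.59 (SE 0.28, adjusted p = 0.148). In control mice it was that of Lgr5 at -0.83 (SE 0.38, 95% interval -1.68 to 0.02, adjusted p = 0.596), and Tbx3 stood at 0.60 (SE 0.24, adjusted p = 0.527).

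Levels can be set side by side between genes only per length, here as normalized counts per kb of the longest annotated transcript in the 6 control libraries. Glul had a median of 5106 per kb, Slc1a2 of 323, Rnf43 of 110, Cnmd of 78.9, Tbx3 of 62.1, Lgr5 of 42.9, Znrf3 of 32.8, Axin2 of 25.5 and Sp5 of 9.03. The ranges over control libraries did not overlap between Glul and Slc1a2, between Slc1a2 and Rnf43 or between Axin2 and Sp5. From Rnf43 down to Axin2 each gene overlapped in its range with the next, so the order of neighbours there is not resolved.

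For each of the 7 genes called in at least 1 comparison, the genes with the most similar pattern were found by the root-mean-square difference in log2 value over the 12 libraries, each gene centred on its own mean. Nearest to Glul were Abcd3 at 0.102, Nfyb at 0.109 and Deptor at 0.113, where the median over all genes was 0.382. Nearest to Slc1a2 were Ulk2 at 0.106, Slc27a5 at 0.108 and Cpq at 0.120, with a median of 0.501. These are close matches to the profile, since the spread of Glul and Slc1a2 about their own means was 0.280 and 0.424. For Lgr5 they were Gmds, Avpr1a and Ccnf at 0.363 to 0.367, and for Cnmd Tbc1d7, Cryz and Atr at 0.377 to 0.385. Rnf43 was followed by Gm4631, Als2cl and Zfp692 at 0.177 to 0.180, Tbx3 by Rnf186, Taf6l and Nlgn2 at 0.254 to 0.259, and Sp5 by Shroom1, Ski and Sp2 at 0.297 to 0.319. The libraries share their genotype and diet over all genes, so this likeness is a description only.

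Upstream of the targets, the ligands of the central vein were measured at low levels, and their calls and directions depended on the scaling. In the average over diets, Wnt2 had 65.1 to 111 normalized counts in control and 63.3 to 94.6 in MED13-LKO libraries (log2 difference -0.19, adjusted p = 0.414). Rspo3, the R-spondin of this niche, had 85.6 to 102 and 64.2 to 94.7 (log2 difference -0.21, adjusted p = 0.246), and Wnt9b stood at 0.20 (adjusted p = 0.441). At equal totals Wnt9b was called higher at 0.51 (adjusted p = 0.0275), and Wnt2 and Rspo3 turned to 0.12 and 0.10 and were not called. Of 24 listed genes for Wnt ligands, R-spondins and their secretion 13 were in the table and 10 were tested, and of these 1 was higher, Wnt5b at 1.06 (adjusted p = 0.000173), a ligand known for signalling without β-catenin, and 0 were lower. Their median was -0.18, and at equal totals it was 0.13 with 3 higher and 0 lower. The shares of all genes called higher and lower were 12.1% and 13.2%, and at equal totals 57.5% and 3.28%.

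Of 17 listed Wnt receptors and co-receptors 16 were in the table and 11 were tested, and of these 1 was higher, the Frizzled gene Fzd1 at 0.42 (adjusted p = 0.0196), and 2 were lower, Fzd6 at -0.86 (adjusted p = 0.0322) and Ryk at -0.22 (adjusted p = 0.0253), against 12.1% of all genes called higher and 13.2% called lower. At equal totals, where 57.5% of all genes were called higher and 3.28% lower, 5 were higher and 0 lower, and Ryk turned to 0.10. Of 23 genes for β-catenin, its destruction complex and TCF factors 21 were tested, of which 5 were higher and 0 lower with a median of 0.06, and 13 were higher and 0 lower at equal totals, where 57.5% of all genes were called higher. They were the β-catenin co-activator genes Pygo1 at 3.14 (adjusted p = 0.000208) and Bcl9 at 1.05 (adjusted p = 0.00463), Tcf7l1 at 0.77 (adjusted p = 0.00555), which encodes a TCF factor known mainly as a repressor, Btrc at 0.29 (adjusted p = 0.0394) and Csnk1a1 at 0.13 (adjusted p = 0.0432). Pygo1 had 1.13 to 13.3 normalized counts in control and 38.4 to 78.7 in MED13-LKO libraries, so its fold depends on the added 1. Ctnnb1, the β-catenin gene, stood at 0.07 (adjusted p = 0.256) and was called higher at equal totals, at 0.39 (adjusted p = 8.85e-05).

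Of 17 other listed Wnt feedback and inhibitor genes 15 were in the table and 6 were tested. Of these 1 was higher and 1 lower, against 12.1% and 13.2% of all genes. At equal totals 4 were higher and 0 lower, against 57.5% and 3.28% of all genes. Notum, which encodes an enzyme that inactivates Wnt proteins, had 442 to 687 normalized counts in control and 301 to 415 in MED13-LKO libraries, without overlap (log2 difference -0.54, adjusted p = 0.00227, and -0.23 with adjusted p = 0.0615 at equal totals). Sfrp1, which encodes a secreted Wnt-binding protein, was higher at 0.78 (adjusted p = 0.0254).

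Other hepatocyte genes were lower in the libraries labelled MED13-LKO too. Of 18 other pericentral hepatocyte genes 10 were lower and 1 higher (13.2% and 12.1% of all genes), with a median of -0.51. At equal totals 10 were lower and 5 higher (3.28% and 57.5% of all genes), with a median of -0.20. The largest differences were those of Cyp8b1 at -1.41 (adjusted p = 0.000984) and Cyp7a1 at -1.06 (adjusted p = 0.0059), both bile acid synthesis genes, the nuclear receptor gene Nr1i3 at -0.90 (adjusted p = 0.00642) and Oat, which encodes ornithine aminotransferase, at -0.79 (adjusted p = 1.68e-05). The 1 higher gene was Tgm2 at 0.32. Cyp2e1 and Cyp1a2, classical pericentral cytochrome genes, stood at -0.07 (adjusted p = 0.589) and 0.08 (adjusted p = 0.386), and at equal totals both were called higher, at 0.24 (adjusted p = 0.0197) and 0.39 (adjusted p = 0.000488).

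Of 20 hepatocyte genes listed as periportal, toward the opposite end of the lobule, 12 were lower and 1 higher (13.2% and 12.1% of all genes). The place of each listed gene in the lobule was not tested. Their median was -0.41. At equal totals 6 were lower and 5 higher (3.28% and 57.5% of all genes), with a median of -0.0975. Etnppl at -1.26 (adjusted p = 8.39e-05) and Igfbp2 at -0.95 (adjusted p = 0.0195) differed most, followed by the urea cycle genes Asl at -0.71 (adjusted p = 0.000187) and Cps1 at -0.69 (adjusted p = 0.000243). The 1 higher gene was Ccnd1 at 0.64. Thus the pericentral and the periportal list both held more lower than higher calls.

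**Figure D4:**
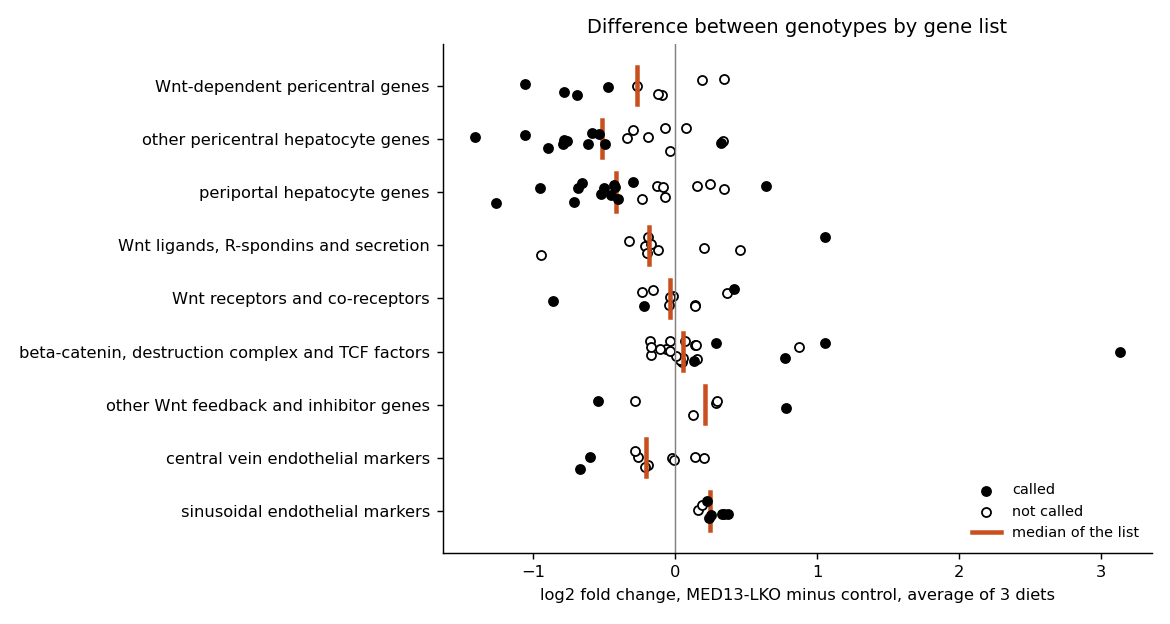
Log2 fold change between MED13-LKO and control averaged over 3 diets (horizontal axis) for the genes of 9 lists, with a point per gene, filled where the adjusted p was under 0.05, and an orange bar at the median of the list. The medians lie at -0.27 for the Wnt-dependent pericentral genes, -0.51 for other pericentral and -0.41 for periportal hepatocyte genes, and at 0.25 for sinusoidal endothelial markers.

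Markers of cell types were counted in the same comparison. Beside their counts, 12.1% of all genes were called higher and 13.2% lower, and at equal totals 57.5% higher and 3.28% lower. Of 8 general hepatocyte markers 5 were lower and 0 higher (0 lower and 2 higher at equal totals), with Alb at -0.45 (adjusted p = 0.0173), and their summed level was 2338200 to 3050820 normalized counts in control and 1815020 to 2208160 in MED13-LKO libraries. Alb alone, at 1780010 to 2411620 in control and 1376900 to 1683240 in MED13-LKO libraries, made up most of that sum. The 10 central vein endothelial markers summed to 1317 to 1604 and 1272 to 1395, and 2 were lower, Thbd at -0.67 (adjusted p = 0.00214) and Selp at -0.60 (adjusted p = 0.022), against 1 lower and 3 higher at equal totals. Of 8 sinusoidal endothelial markers 6 were higher (8 at equal totals), led by Stab2 at 0.37 (adjusted p = 0.0083), and their sums of 4947 to 5745 and 5938 to 7780 did not overlap.

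Of 8 Kupffer cell markers 2 were higher (12.1% of all genes), Marco at 1.22 (adjusted p = 0.000212) and Cd5l at 0.63 (adjusted p = 0.000481). Their sums were 3680 to 5062 in control and 4782 to 6319 in MED13-LKO libraries. At equal totals 8 were higher, where 57.5% of all genes were. The 8 stellate cell markers summed to 5491 to 6566 and 5038 to 5709. Of these 3 were lower (13.2% of all genes), Des at -0.53, Col3a1 at -0.38 and Dcn at -0.26. At equal totals 0 were lower and 3 higher, against 3.28% and 57.5% of all genes. Of 2 tested leukocyte markers Ptprc was higher at 0.33, and the sums of all 8 were 196 to 286 and 260 to 390. None of these markers was at 0 in all libraries, and their part in the lower values of Glul, Slc1a2, Lgr5 and Cnmd was not tested.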

How the data were processed

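Liver RNA-seq libraries of 12 mice were used, grouped by genotype and diet from the sample titles and characteristics. Per the labels and the study's methods, the authors trimmed reads with Trim Galore 0.6.5, estimated transcript counts with kallisto 0.46.0 and normalized them with DESeq2 1.24.0. The deposited values are a signal, normalized counts for 16346 genes. The submitters' notes name build mm10, and the transcript reference is not given in the sources used here. Over all genes 51.9% to 58.9% of values under 20 were whole multiples of 1 read (tolerance 0.05 reads), against 87.3% to 99.0% in the 2652 genes with 1 transcript whose low values gave the depth (18763700 to 21413800 reads on genes per control and 16086600 to 24231200 per MED13-LKO library), so counts were not recovered and no count test was run.

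Differences were fitted with limma 3.58.1 under R 4.3.3 on log2(normalized count + 1), with 6 group means, a mean-dependent prior and Benjamini-Hochberg adjustment over 12366 genes (mean of 10 or more). Called means an adjusted p-value under 0.05. This scale understates changes of low genes. Symbols and positions come from GENCODE M21 on GRCm38, where 16212 identifiers matched and 134 did not. Promoter sequences come from RefSeq on GRCm38.p6. Python 3.11.15 and matplotlib 3.10.9 were used.

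The members and the other gene lists were chosen with earlier results of these data known. The genes named were all the members, up to 4 called genes of the largest change per list, list genes on which a count of 5 or fewer turns, and 3 nearest genes for each member called. Wnt2, Rspo3, Wnt9b, Ctnnb1, Cyp2e1, Cyp1a2, Med13 and the called markers beyond that rule were chosen after their values were seen. Cholangiocyte markers are not reported here. The labels name no batch. Replicate numbers come from the titles, and the file's columns number the refed mice otherwise. Alternatives were pseudocounts of 0.1 and 10, no filter, the replicate number as a block, rescaling to equal totals or equal 75th percentiles, fitting the compared groups alone, and omitting each mouse in turn.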

Additional observations from a re-analysis of the deposited data

How the results depend on the processing

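The number of genes called on average over diets was 4 of 9 under the alternatives run, except 5 with the replicate block and 4 to 5 when 1 mouse was left out. The genes were not the same at equal totals, where 3 were lower and 1 higher. There Cnmd was no longer called and Tbx3 was called higher. Leaving out 1 mouse left 1 in its group. Such fits gave as many or fewer calls of the 9 between genotypes within a diet and for each sugar against the fasted state. Fewer of all genes were called in most of these fits too. Equal totals gave 1 call between genotypes with sucrose, and 3 for sucrose and 2 for fructose in control mice. Of all genes 2242, 1306 and 866 were called there, and 746, 1060 and 692 on the deposited scale. Equal 75th percentiles gave 2 for sucrose in control and 1 in MED13-LKO mice. Of all genes 1070 and 672 were called there, and 1060 and 706 on the deposited scale. Fits of only the compared groups have fewer mice behind the spread. They gave 3 calls between genotypes with sucrose and 1 with fructose, beside 561 and 163 of all genes. For sucrose in control, fructose in control and fructose in MED13-LKO mice they gave 0, beside 698, 27 and 414 of all genes. In the same order, the fit of all 12 libraries called 746, 951, 1060, 692 and 807 of all genes. At equal totals Axin2, Rnf43 and Znrf3 turned to 0.22, 0.0485 and 0.20. Without 1 mouse Axin2 ranged from -0.26 to 0.0738 between genotypes, and in MED13-LKO mice Tbx3 ranged from -0.0736 to 0.46 with sucrose and -0.10 to 0.54 with fructose, and Sp5 from -0.30 to 0.42 and -0.23 to 0.50. The pseudocounts and the filter changed no count by over 1.5 times. The cause of these changes was not tested.

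Mice with equal replicate numbers in the titles shared little deviation over all genes. Over 15 pairs of groups the correlation of deviations was -0.14 to 0.08. Deviations shared by few genes, and pairing of fasted with refed mice by the file's column numbers, were not tested. In the fit blocked on the replicate number, the calls for sucrose in MED13-LKO mice moved from 0 to 1 (Rnf43, adjusted p = 0.0167), those averaged over diets from 4 to 5 (Rnf43, adjusted p = 0.0436) and those between genotypes with sucrose from 2 to 3, and the other counts of calls were the same. Of all genes 598, 2928 and 644 were called there, and 706, 3127 and 746 without the block. With the numbers crossed in the MED13-LKO fructose group, chosen after seeing the data, 3 genes were called between genotypes with fructose, as without the block. Of all genes 919 were called there, and 951 without the block.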
